A study of Fundulus heteroclitus with 8 samples.

Results

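Histones and chromatin proteins were followed in testes of an estuarine killifish, the mummichog (Fundulus heteroclitus), with and without exposure to an androgen. They were taken as the probes whose product name on the array contains histone, high mobility group, chromobox, chromatin, nucleosome, SWI/SNF, bromodomain, polycomb, methyl-CpG or DNA (cytosine-5). This rule found 57 of the 7157 probes, and 0 of them came from either of the last 2 terms, so that enzymes and readers of DNA methylation were not covered. Of the 57 probes, 12 were named for a histone protein (3 H1, 5 H2A, 1 H2B, 2 H3 and 1 H4) and 45 for other proteins. The 45 were 4 high mobility group proteins, 6 histone-modifying enzymes or subunits of their complexes, 6 chromobox or polycomb proteins, 23 remodelling, assembly or bromodomain proteins, and 6 proteins that carry one of the words in their name without being chromatin components in the usual sense.

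Total testis RNA, labelled with the dye Cy3, was measured on 8 single-colour Agilent arrays, with 1 array per sample. The fish were adult males. The control group held 4 samples at 0 µg/L. The group called DHT50 held 4 samples from waterborne exposure for 21 days to 5α-dihydrotestosterone at 50 µg/L. This hormone, shortened to DHT, binds the androgen receptor and is not a substrate of aromatase, the enzyme that makes estrogens. The labels describe the samples as biological replicates and the DHT50 samples as individuals, and do not describe the control water further. The labels also mention exposure to 5 µg/L, which was not analysed here. A level below is the log2 processed signal of a probe minus the 75th percentile of its array, so that 0 is as bright as that percentile, and a change is the mean of DHT50 minus the mean of control on that log2 scale.

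In a nucleosome, DNA is wrapped around pairs of the core histones H2A, H2B, H3 and H4, and a linker histone, H1, binds where the DNA enters and leaves. Most core histone genes are copied many times in animal genomes and are used mainly while DNA is replicated, whereas variants such as H3.3 and the linker histone H1.0 are made outside replication too. A testis holds dividing spermatogonia, meiotic cells and spermatids, and spermatid chromatin is repacked during maturation in many animals. Since histone genes of a family are near-identical, 1 probe can bind the products of several genes, and each probe is reported under the name the design gives it. The labels do not say which primer was used for labelling, so it is not known how far histone mRNAs without a poly(A) tail were measured.

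No histone or chromatin probe passed the test between DHT50 and control testes after adjustment for all probes tested. The lowest p-values of the members belonged to the linker histone H1.0, with a change of -0.91 ± 0.40 (SE), and to the core histone H2B, with a change of 1.39 ± 0.65 (SE), and both overlapped between the groups. Of the 57 probes, 55 were well above background on at least 4 arrays and were tested, and 51 of these were well above background on all 8. With limma and Benjamini-Hochberg adjustment, 0 of the 55 passed an adjusted p of 0.05, as did 0 of all 5989 tested probes (0%), and the lowest adjusted p among the 55 was 0.685. At an unadjusted p under 0.05, 1 of the 55 (1.82%), the linker histone H1.0, was lower in DHT50, beside 1.42% of all tested probes. None of the 55 (0) was higher at that threshold, beside 3.29% of all tested probes, and in either direction the share over all probes was 4.71%. The DHT50 and control ranges did not overlap for 0 of the 55, against 2.22% of all tested probes. Each share of the members was near or below that of all tested probes. Of the 55 changes, 33 were above 0 and 22 below, with a median of 0.07 beside a median of 0.06 over all tested probes. In whole testis RNA, fewer cells of a type and less RNA per cell cannot be told apart.

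**Figure D1:**
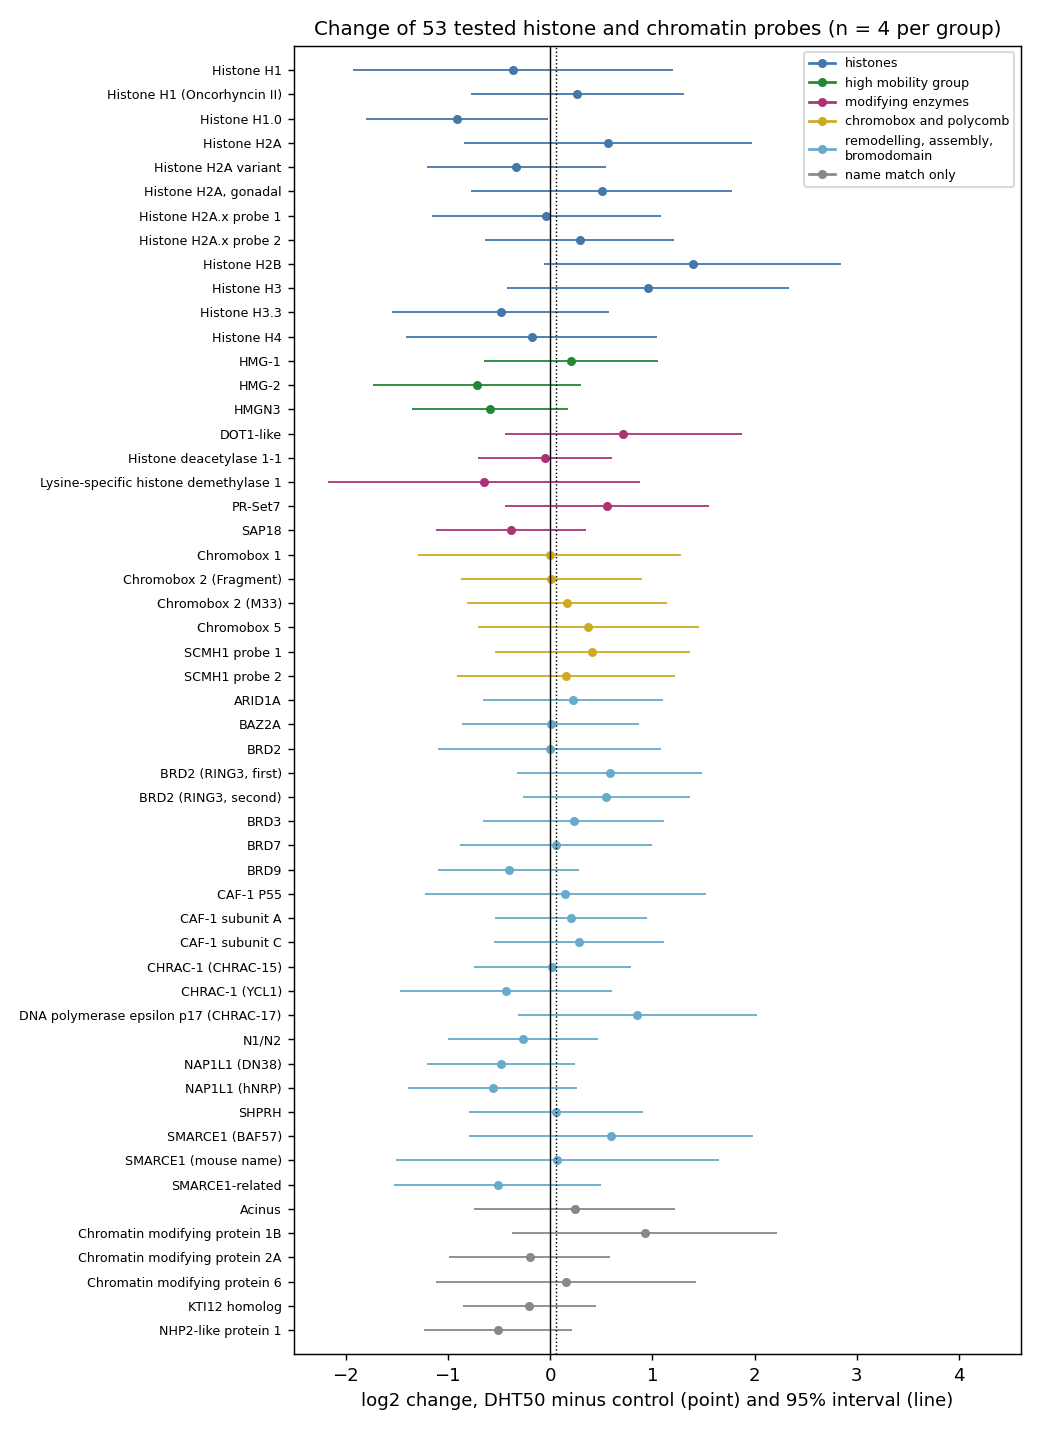
Log2 change (horizontal axis, DHT50 minus control) of 53 of the 55 tested probes, with points for the estimates and lines for 95% confidence intervals from limma, coloured by class, with a solid line at 0 and a dotted line at the median of all tested probes (0.06). The interval of Histone H1.0 (-1.80 to -0.02) leaves out 0, and that of Histone H2B reaches from -0.06 to 2.85.

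Of the linker histones, Histone H1.0, a variant known in mammals from cells that have left the cell cycle, had levels of -1.28, -1.82, -2.19 and -2.02 in controls 1 to 4 and of -2.08, -3.58, -2.82 and -2.48 in DHT50 1 to 4. Of the DHT50 samples, 3 lay below every control, and DHT50 1 lay above control 3, so the groups overlapped by that sample. The control mean was -1.83 ± 0.40 (SD, n = 4) and the DHT50 mean -2.74 ± 0.64 (SD, n = 4). The change was -0.91 ± 0.40 (SE), a 0.532-fold level with a 95% interval of 0.287 to 0.985, which passed an unadjusted threshold of 0.05 and not the adjusted one (limma, adjusted p = 0.685). It was lower in DHT50 under each of the 21 other settings that were run, from -1.55 to -0.42. Without DHT50 2, DHT50 3, DHT50 4, control 1, control 2 or control 4 it no longer passed the unadjusted threshold, and without DHT50 2 the change was -0.63.

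Histone H1, the general linker histone name, had levels of -0.26, 0.29, -0.45 and -2.02 in controls 1 to 4 and of -0.22, -2.14, -2.02 and 0.48 in DHT50 1 to 4. Both groups held samples near 0 and samples near -2, and the change was -0.37 ± 0.70 (SE). The probe for Histone H1 that contains the antimicrobial peptide oncorhyncin II, a name from trout, was at -2.44, -3.43, -3.71 and -4.18 in the controls. It was at -2.35, -3.50, -3.80 and -3.04 in DHT50. The ranges overlapped almost fully, and the change was 0.27 ± 0.46 (SE). Before spots with an outlier flag were left out, the 2 spots of this probe differed by up to 1.69 on 1 array. Its levels had a range of 1.83 over the 8 arrays. The 3 linker histone probes thus gave 2 changes below 0 and 1 above.

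Histone H2B, which pairs with H2A in the nucleosome core, had the largest change of the 55 probes. Its levels were 3.90, 3.79, 3.49 and 5.05 in controls 1 to 4 and 6.35, 6.80, 3.97 and 4.70 in DHT50 1 to 4. DHT50 1 and 2 were above every control, while DHT50 3 and 4 lay within the control range. The change was 1.39 ± 0.65 (SE), a 2.63-fold level with a 95% interval of 0.959 to 7.20, and it passed neither threshold (limma, adjusted p = 0.685). DHT50 H2B levels had an SD of 1.34 and control levels an SD of 0.68 (n = 4 each). The change stayed above 0 under all 21 other settings, from 0.50 with array weights to 1.89 without DHT50 3. With 1 array left out, it ran from 0.95 to 1.89. H2B fell under the unadjusted threshold with the normexp background correction, quantile normalization and the trend and robust model. It also did so without DHT50 3, DHT50 4 or control 4, and it passed adjustment in none of these settings. In the fit with array weights, DHT50 1 (0.26) and DHT50 2 (0.37), the samples above every control, had the lowest weights. The weights of DHT50 3 and 4 were 2.58 and 1.65.

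Histone H3 was at 3.20, 3.37, 3.20 and 3.66 in controls 1 to 4 and at 3.66, 6.39, 3.44 and 3.75 in DHT50 1 to 4. DHT50 2 stood far above the other 7 samples, which lay between 3.20 and 3.75. The change was 0.95 ± 0.62 (SE; limma, adjusted p = 0.685), and without DHT50 2 it was 0.26. The replacement variant Histone H3.3, which is laid down outside replication, had levels of 1.04, 1.72, 0.94 and 1.34 in the controls. In DHT50 its levels were 1.55, -0.49, 0.64 and 1.42, with DHT50 2 lowest of the 8 samples. The change was -0.48 ± 0.47 (SE), and the DHT50 samples 1 and 4 lay within the control range.

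Histone H4, the partner of H3, had levels of 5.01, 6.46, 4.44 and 5.46 in controls 1 to 4 and of 4.05, 5.20, 5.25 and 6.16 in DHT50 1 to 4. The groups covered nearly the same range, and the change was -0.18 ± 0.55 (SE). The sign of the H4 change turned with the slide row as a block (0.27), in row 2 of the slide alone (0.71) and without DHT50 1 or control 2 (up to 0.20). The 95% interval for H4 ran from -1.41 to 1.05, which covers a change of 2-fold in either direction.

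The 5 H2A probes had changes between -0.33 and 0.57, none of which passed the unadjusted threshold. Histone H2A was at -1.59, -0.67, -0.40 and -0.90 in controls 1 to 4 and at -2.01, -0.07, 1.29 and -0.49 in DHT50 1 to 4. The DHT50 samples enclosed the control range on both sides, and the change was 0.57 ± 0.63 (SE). It ran from 0.03 to 1.13 with 1 array left out, with the highest value without DHT50 1, and was -0.15 with array brightness as a covariate. Histone H2A, gonadal, was at -2.26, -0.94, -1.95 and -0.88 in the controls and at -1.92, 0.54, -1.43 and -1.21 in DHT50. DHT50 2 was above every control and the other 3 DHT50 samples lay within the control range, with a change of 0.50 ± 0.57 (SE).

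The Histone H2A variant probe had levels of 0.53, 1.33, 0.02 and 0.63 in the controls and of 0.60, -0.14, -0.11 and 0.83 in DHT50, a change of -0.33 ± 0.39 (SE). Histone H2A.x, the variant that is phosphorylated at DNA breaks, was measured by 2 probes. The first was at -0.10, 0.68, -0.24 and 0.64 in the controls and at -0.99, -0.12, 0.79 and 1.17 in DHT50, with a change of -0.04 ± 0.50 (SE). The second was at -0.06, 0.01, -0.34 and -0.07 in the controls and at -0.50, -0.39, 0.40 and 1.20 in DHT50, with a change of 0.29 ± 0.41 (SE). On both H2A.x probes DHT50 3 and 4 were above every control and DHT50 1 was below every control, so the DHT50 samples spread to both sides and their means stayed near those of the controls.

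**Figure D2:**
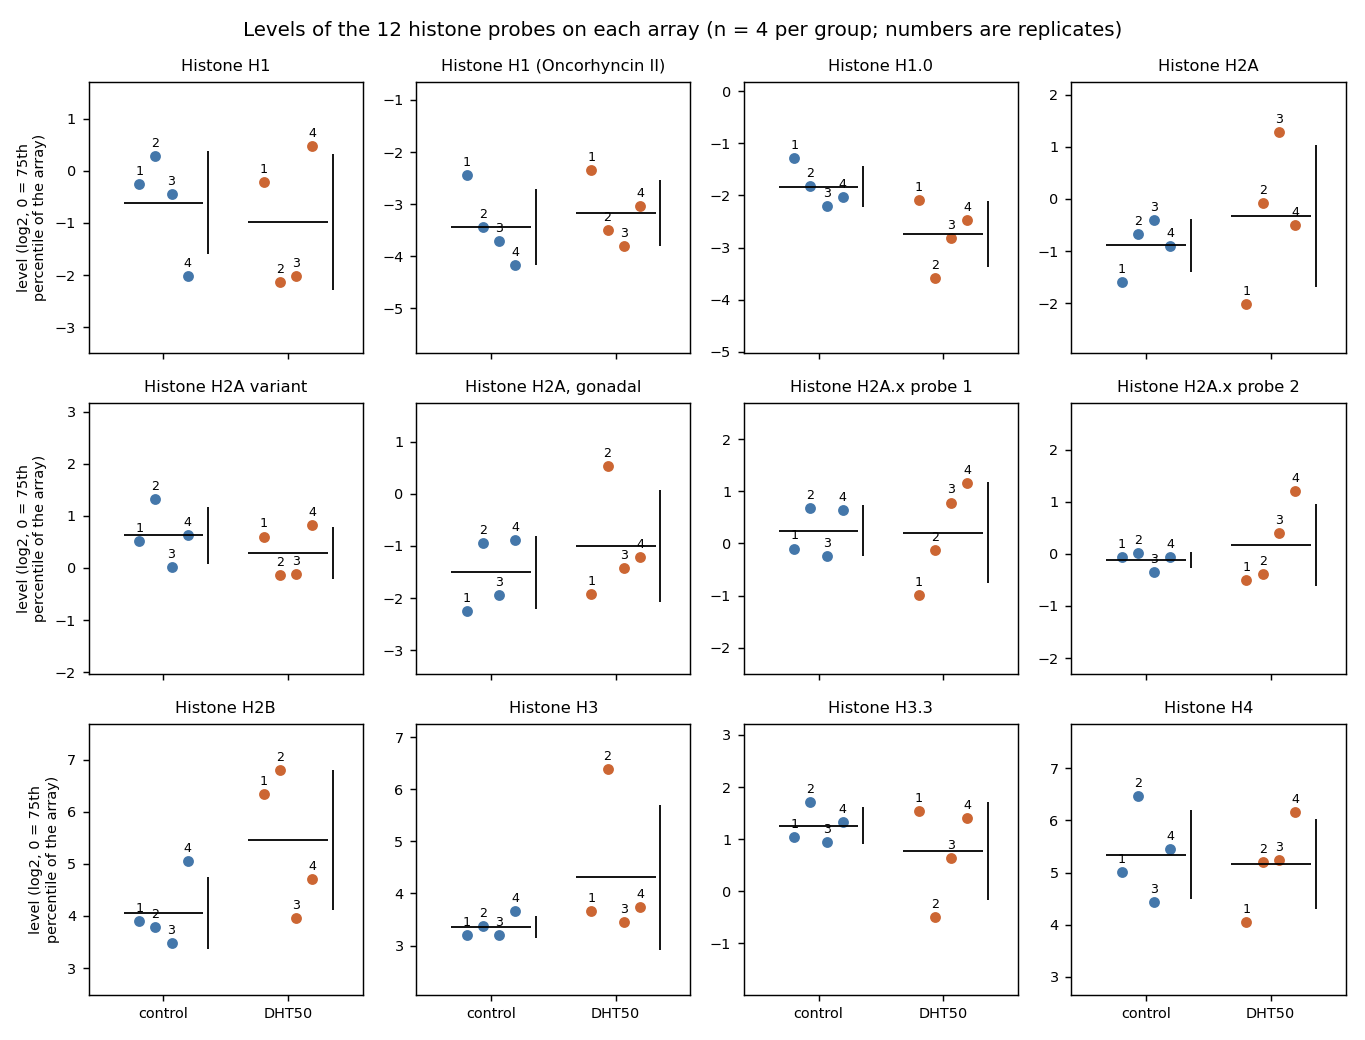
Level of each histone probe (vertical axes, log2, 0 is the 75th percentile of the array) in control (blue) and DHT50 (orange) samples, with 1 point per array numbered by replicate, horizontal lines for group means and vertical lines for ± 1 SD (n = 4). All panels span the same number of log2 units; DHT50 2 is highest for H3 (6.39) and lowest for H3.3 (-0.49) and H1.0 (-3.58).

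The spread between samples of the same group varied from one histone probe to another. The median within-group SD was 0.81 over the 12 histone probes, 0.58 over the 43 other members and 0.65 over all tested probes. Histone H1 (1.16), Histone H2B (1.06), Histone H2A (1.03) and Histone H3 (0.997) had a larger within-group SD than 87.9%, 84.1%, 81.9% and 80.3% of tested probes. At the other end were Histone H2A variant (0.52), Histone H1.0 (0.53) and the second H2A.x probe (0.57), above 33.2%, 35.0% and 39.3% of tested probes. Spots of the same probe on the same array mostly differed far less, by a median of 0.07 for the histone probes and 0.10 for all tested probes. The largest such difference among the histone probes was 1.69, on the oncorhyncin II probe. The standard error of a change had a median of 0.52 over the histone probes and 0.45 over all tested probes.

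Levels of the 12 histone probes over the 8 arrays were compared in all 66 pairs, with exact permutation tests over the 40320 orders of the arrays and Benjamini-Hochberg adjustment over the pairs. For Pearson r 0 of the 66 pairs passed an adjusted p of 0.05 (lowest 0.133), and for Spearman rho 0 passed (lowest 0.0737). Histone H2B and Histone H3 had r = 0.77 and rho = 0.90 (exact permutation p = 0.00201 and 0.00456, adjusted 0.133 and 0.100), and r = 0.89 without the 2 arrays farthest from the median of H2B. The 2 probes of Histone H2A.x had r = 0.83 and rho = 0.95 (exact permutation p = 0.00871 and 0.00114, adjusted 0.167 and 0.0737), and r = 0.80 without 2 arrays chosen in the same way. Histone H2A variant and Histone H3.3 had r = 0.81 and rho = 0.93 (exact permutation p = 0.0101 and 0.00223, adjusted 0.167 and 0.0737), and r = 0.89 without 2 such arrays. The first H2A.x probe and Histone H4 had r = 0.87 and rho = 0.86 (exact permutation p = 0.00464 and 0.0107, adjusted 0.153 and 0.177), and r = 0.70 without 2 such arrays. Histone H1.0 and Histone H3 had r = -0.80 and rho = -0.57 (exact permutation p = 0.0213 and 0.151, adjusted 0.234 and 0.587), and r = -0.09 without the 2 arrays farthest from the median of H1.0, so that this value rested on those arrays. Across the 66 pairs the highest Pearson r was that of Histone H2A, gonadal, and Histone H3, at 0.868 (exact permutation p = 0.0131, adjusted 0.173). Its rho was 0.67 (exact permutation p = 0.0831, adjusted 0.499), and r was 0.31 without 2 arrays chosen in the same way. The lowest Pearson r was that of Histone H3 and Histone H3.3, at -0.81 (exact permutation p = 0.106, adjusted 0.466). For that pair rho was -0.05 (exact permutation p = 0.935, adjusted 0.964), and r was 0.33 without 2 such arrays. All pairs share the arrays' scaling. The 8 arrays were pooled without removing the group means, so a difference between DHT50 and control enters these values too. As a description with no test, the 3 named probes of 3965 with the highest Pearson r to H4, the histone probe with the highest mean signal, over the 8 arrays were centromere autoantigen H, a kinetochore protein (r = 0.96), the hemoglobin alpha chain, a red blood cell protein (0.92), and serine/arginine repetitive matrix 2, a splicing protein (0.90).

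High mobility group proteins bind and bend DNA or bind nucleosomes. HMG-2, a DNA-bending protein abundant in the testis of mammals, had levels of 3.44, 3.89, 2.23 and 3.42 in controls 1 to 4 and of 2.98, 1.78, 2.29 and 3.06 in DHT50 1 to 4. All 4 DHT50 samples were below 3 of the controls, and DHT50 2 was below every control, with a change of -0.71 ± 0.45 (SE). HMGN3, a nucleosome-binding protein, was at -2.08, -1.92, -1.44 and -2.23 in the controls and at -3.0, -2.69, -2.03 and -2.31 in DHT50. For HMGN3, 3 DHT50 samples were below every control, and the change was -0.59 ± 0.34 (SE). HMG-2 and HMGN3 were below 0 under all 21 other settings and passed adjustment in none of them. HMG-1, a relative of HMG-2, had a change of 0.20 ± 0.38 (SE), and its probe cleared background on 4 control and 2 DHT50 arrays. HMG-14A was not well above background on any array (0 of 8) and was not tested.

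Among the histone-modifying enzymes, 2 changes were above 0 and 3 below, and none passed 0.05 without adjustment. DOT1-like, the methyltransferase that acts on the globular part of H3, had levels of -3.84, -3.15, -2.39 and -3.40 in the controls and of -3.69, -1.38, -2.30 and -2.54 in DHT50, a change of 0.72 ± 0.52 (SE). PR-Set7, which adds the first methyl group to the H4 tail, was at -5.18, -4.42, -4.01 and -4.34 in the controls and at -5.02, -3.30, -3.54 and -3.88 in DHT50, a change of 0.55 ± 0.45 (SE). For PR-Set7, 3 DHT50 samples were above every control and DHT50 1 was below 3 of them. With 1 array left out, the change ran from 0.35 to 1.12 for DOT1-like and from 0.32 to 0.92 for PR-Set7. With brightness as a covariate, the change was 0.0019 for DOT1-like and -0.03 for PR-Set7. With the normexp background correction, it was 0.23 for DOT1-like and 0.11 for PR-Set7.

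Lysine-specific histone demethylase 1, which takes methyl groups off H3, was at -4.30, -2.23, -1.99 and -2.69 in the controls and at -4.05, -4.85, -2.43 and -2.47 in DHT50. Each group held samples at or below -4 and samples above -3, and the change was -0.65 ± 0.68 (SE). The demethylase probe cleared background on 4 control and 3 DHT50 arrays. SAP18, a subunit of a histone deacetylase complex, was at 1.89, 2.29, 2.02 and 1.99 in the controls and at 2.11, 1.05, 1.59 and 1.90 in DHT50, a change of -0.38 ± 0.33 (SE). With 1 array left out, the change ran from -1.15 to -0.18 for the demethylase and from -0.53 to -0.18 for SAP18. The demethylase turned to 0.18 when slide row was a block, and to 0.52 in row 1 alone. Histone deacetylase 1-1, the enzyme named in such complexes, had narrow ranges, with levels from -1.90 to -1.43 in the controls and from -1.94 to -1.48 in DHT50. Its change was -0.05 ± 0.29 (SE), with a 95% interval of -0.71 to 0.60, and its within-group SD of 0.23 was larger than that of 2.34% of tested probes. Sin3a, the scaffold of a deacetylase complex, was well above background on 1 array and was not tested.

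The chromobox and polycomb proteins read or spread repressive histone marks. Their 6 probes had changes between 0.00 and 0.41, with 5 above 0, and none passed the unadjusted threshold. Chromobox 1 and chromobox 5, the heterochromatin proteins HP1 beta and HP1 alpha, had changes of -0.00 ± 0.57 and 0.37 ± 0.48 (SE). Chromobox 2, a polycomb protein required for testis development in mammals, was measured by a probe named as a fragment, with a change of 0.01 ± 0.40 (SE), and by a probe named M33, with a change of 0.16 ± 0.44 (SE). The polycomb protein SCMH1, studied in mouse spermatogenesis, also had 2 probes, with changes of 0.41 ± 0.42 and 0.15 ± 0.47 (SE).

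The 23 remodelling, assembly and bromodomain probes had 16 changes above 0 and 7 below, with a median of 0.07. The largest was that of DNA polymerase epsilon p17 (CHRAC-17), a histone-fold protein shared by a DNA polymerase and a chromatin remodelling complex. It was at -0.63, 0.20, 0.32 and 0.41 in controls 1 to 4 and at -0.34, 2.20, 1.0 and 0.87 in DHT50 1 to 4. DHT50 2, 3 and 4 were above every control and DHT50 1 was not, and the change was 0.85 ± 0.52 (SE). It was 1.28 without DHT50 1 and 0.43 without DHT50 2. The 2 spots of the CHRAC-17 probe on an array differed by a median of 0.50, beside 0.10 for all tested probes. CHRAC-1, its histone-fold partner, had changes of 0.02 ± 0.34 and -0.43 ± 0.46 (SE) on its 2 probes.

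NAP1L1, a chaperone that carries H2A and H2B to the nucleosome, was measured by 2 probes. The one named hNRP was at 2.49, 3.22, 2.31 and 2.67 in the controls and at 1.99, 1.73, 1.86 and 2.87 in DHT50, with 3 DHT50 samples below every control. The one named DN38 was at 1.39, 1.68, 0.90 and 1.21 in the controls and at 0.98, 0.74, 0.39 and 1.17 in DHT50. Their changes were -0.56 ± 0.37 and -0.48 ± 0.32 (SE), below 0 on both probes, and neither passed 0.05 without adjustment. Within DHT50, replicate 4 was highest on both.

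The bromodomain proteins bind acetylated histones. BRD2 had 3 probes with changes of -0.00 ± 0.49, 0.58 ± 0.40 and 0.55 ± 0.36 (SE), the last 2 under the name RING3. BAZ2A, part of a complex that silences ribosomal RNA genes, had a change of 0.00 ± 0.39 (SE). SMARCE1, a DNA-binding subunit of the SWI/SNF remodelling complex, had changes of 0.60 ± 0.62 and 0.07 ± 0.71 (SE) on 2 probes. Its relative SMARCE1-related, a partner of the H3 demethylase above, had a change of -0.51 ± 0.45 (SE). The SMARCE1-related probe cleared background on 4 control and 3 DHT50 arrays. Where several probes carried one name, their intervals overlapped.

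Another 15 tested members, which the naming rule did not pick, had changes between -0.51 and 0.93, 10 above 0 and 5 below, and none passed the unadjusted threshold. They include all 6 name-only matches, 3 of which are called chromatin modifying proteins 1B, 2A and 6. Those names belong to subunits of the ESCRT-III machinery, which bends membranes. Among the 6, 3 changes were above 0 and 3 below.

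Of other genes that work beside the histones, a list of DNA replication proteins outside the 57 had 10 tested probes. With limma, 0 of the 10 passed after adjustment, 8 changes were below 0 and 2 above, and the median was -0.56 beside 0.06 over all tested probes. MCM2, a subunit of the replicative helicase, had a change of -0.60 ± 0.43 (SE), and DNA polymerase epsilon p12, which pairs with the p17 subunit in the polymerase of mammals, one of -0.93 ± 0.43 (SE). The large subunit of ribonucleoside-diphosphate reductase, which makes DNA precursors, was 1.01 ± 0.36 (SE) higher and was the only one with an unadjusted p under 0.05 in limma. The M2 chain of the same enzyme, also on the list, had a change of -0.21 ± 0.63 (SE). The summed level of the list was 4.41 to 4.94 in the controls and 3.50 to 4.42 in DHT50. The median deviation of the 10 probes from their own means was 0.30, 0.50, 0.15 and 0.12 in controls 1 to 4. In DHT50 1 to 4 it was -0.15, -0.86, -0.16 and 0.17. DHT50 2, the dimmest array, was thus lowest, and DHT50 4 lay above controls 3 and 4. A list of other chromatin and nucleolar proteins had 14 tested probes, with 10 changes above 0, 4 below, a median of 0.10 and 0 past adjustment. Its only probe under an unadjusted p of 0.05 was sirtuin-5, a deacylase of mitochondria, at -1.01 ± 0.43 (SE). Over all tested probes, 4.71% were under that threshold in limma in either direction.

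The arrays also differed in brightness and in their place on the slide. Array brightness, the 75th percentile of log2 signal, was 10.3 ± 0.586 in control and 9.39 ± 1.23 in DHT50 (SD, n = 4), with an exact two-sided permutation p of 0.257 over 70 assignments, and it ran from 7.97 in DHT50 2 to 11.2 in control 1. The median deviation of the 43 other chromatin probes from their own means was -0.76 in control 1 and -0.41 in DHT50 1, the brightest arrays. It was between -0.03 and 0.28 on the other 6. Over all tested probes the medians of control 1 and DHT50 1, -0.34 and -0.25, were also the lowest of the 8 arrays. With brightness as a covariate, 25 of the 55 changes took the other sign, leaving 14 above 0 and 41 below, and the median of all tested probes went from 0.06 to -0.13. The share of all tested probes that took the other sign is not given here. Histone H1.0 was then at -0.42, Histone H2B at 1.32, Histone H3 at 0.28, CHRAC-17 at 0.07 and HMG-2 at -0.37. With 8 arrays of partly separated brightness, DHT and brightness cannot be told apart beyond this.

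Row 1 of the slide held control 1 and DHT50 1, 2 and 3, and row 2 held DHT50 4 and controls 2, 3 and 4. Within row 1 and row 2, the change was -1.55 and -0.46 for Histone H1.0, 1.80 and 0.59 for Histone H2B, 1.30 and 0.34 for Histone H3, -1.09 and -0.11 for HMG-2, and 1.58 and 0.56 for CHRAC-17. Each of these 5 kept its direction in both rows, but they are among the probes with the larger changes over the same arrays. In row 1 the single control is control 1, the brightest array, and in row 2 the single DHT50 sample is DHT50 4. Of the 55 members, 6 took the other sign in row 1 alone and 14 in row 2 alone. Among the latter were Histone H1 (-1.20 in row 1 and 1.20 in row 2), Histone H4 (-0.18 and 0.71) and Histone H3.3 (-0.48 and 0.08). With row as a block the 2 medians were 0.33 for the histone probes and 0.48 for the other chromatin probes, beside 0.21 for all tested probes. Without DHT50 1, 7 of the 55 members were higher and 1 lower at an unadjusted p under 0.05, while 23.2% of all tested probes passed that threshold, and 0 members passed after adjustment. Histone H2A, DOT1-like, PR-Set7 and CHRAC-17 were among the 7.

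**Figure D3:**
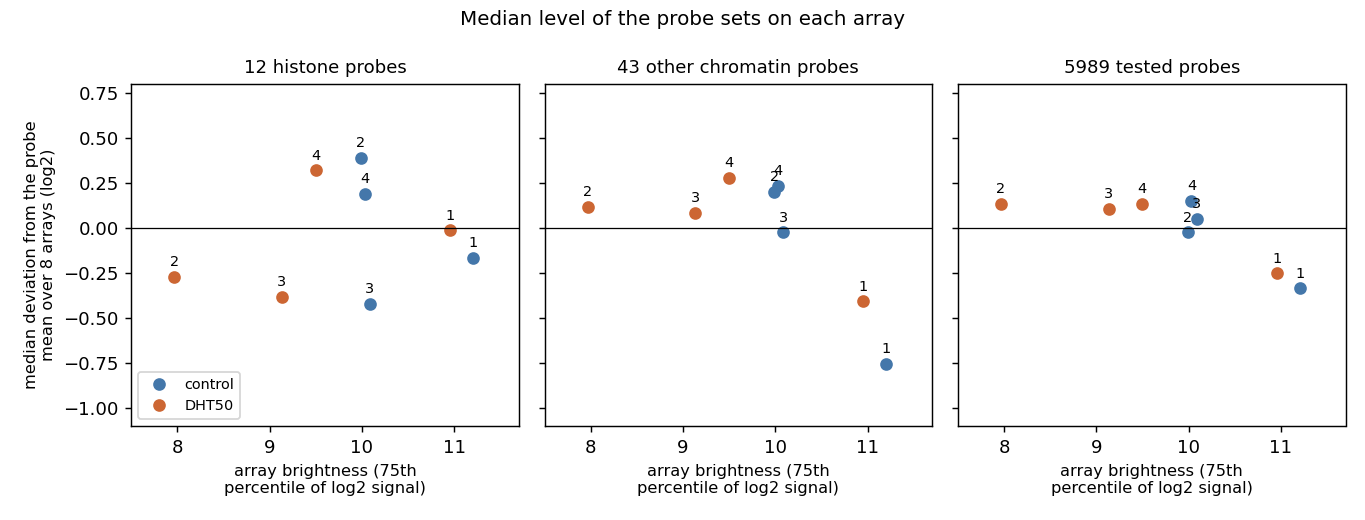
Median deviation of 3 probe sets from the probes' own means over the 8 arrays (vertical axes, log2) against array brightness (horizontal axes, 75th percentile of log2 signal), with 1 point per array, control in blue and DHT50 in orange, numbered by replicate. For the 43 other chromatin probes control 1 (-0.76) and DHT50 1 (-0.41) are lowest, as for all tested probes (-0.34 and -0.25). The histone probes have control 3 (-0.42) and DHT50 3 (-0.38) lowest.

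Gonad markers were read beside the tissue label, and they cannot tell testis from ovary. The tested probes of zona pellucida sperm-binding proteins 3 and 4, named for the egg coat, were well above background on all 8 arrays. Vasa (DEAD-box protein 4), which marks germ cells, the follicle stimulating hormone receptor and inhibin alpha were well above background on all 8 arrays, cytochrome P450 17A1 on 7 and the steroidogenic acute regulatory protein on 6. Among lists of other cells, 30 tested liver probes had a median deviation of 4.26 in control 1 and between -1.72 and 1.02 in the other 7 samples, and 28 of the 30 had changes below 0 (median -1.57). Their summed level was 2.77 to 8.90 in control and 2.46 to 5.56 in DHT50, and 17 of the 30 were well above background on all arrays. Without control 1, 12 of the 55 members took the other sign, leaving 21 changes above 0 and 34 below, and the median of the other chromatin probes was -0.14, beside -0.04 over all tested probes. The change was then -0.73 for Histone H1.0 and 1.34 for Histone H2B. The median change was 0.25 over 13 red blood cell probes, 0.26 over 51 muscle probes and 0.43 over 27 leukocyte probes. It was -0.16 over 28 probes matched by words listed for germ cells and sperm and 0.04 over 7 somatic testis probes. At an unadjusted p under 0.05 (limma), 5 of the 27 leukocyte probes were higher, as were 1 red blood cell and 1 muscle probe. At that threshold 2 of the 30 liver probes and 3 of the 28 probes matched by the germ cell and sperm words were lower. Over all tested probes, 3.29% were higher and 1.42% lower. The lists matched words in product names, so not every probe marks the cell. The 3 lower germ cell and sperm matches were L-xylulose reductase on 2 probes and the purine enzyme ADE2. ADE2 matched only by letters inside a longer word. The muscle probe was tropomyosin alpha 4, and 1 of the 5 leukocyte probes was E-selectin, also named as an endothelial adhesion molecule. The somatic testis list had 0 in either direction, and 0 probes of these lists passed adjustment. Vasa had a change of -0.96 ± 0.54 (SE). The part of these cell types in the histone values was not tested.

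**Figure D4:**
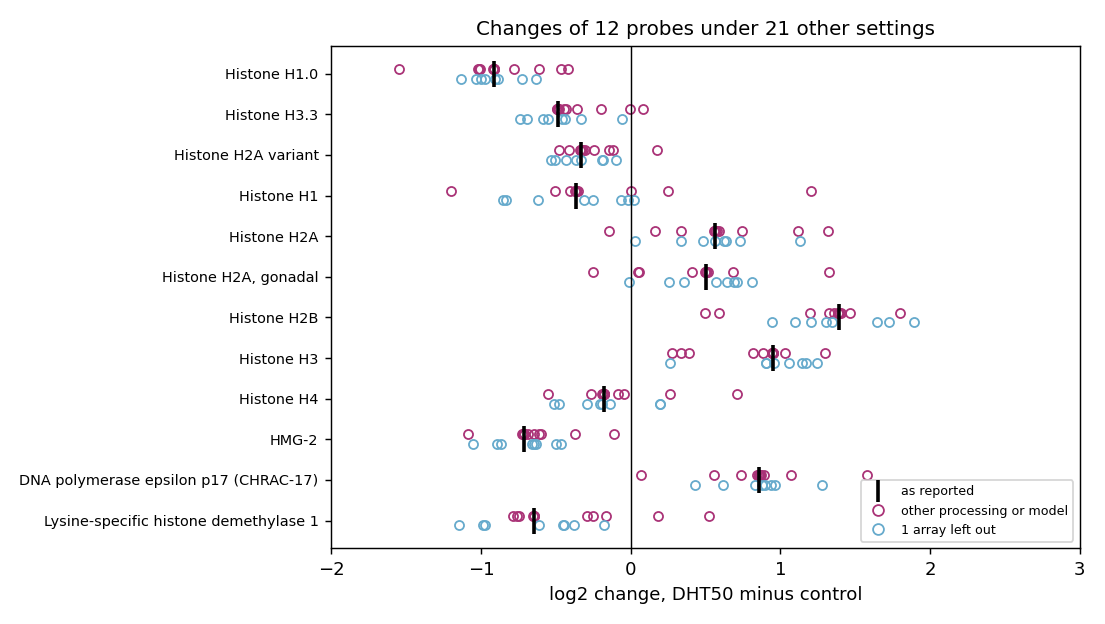
Log2 change (horizontal axis, DHT50 minus control) of 12 of the named probes, with a black bar for the value as reported, purple circles for other processing or models and blue circles for fits with 1 array left out. All circles of Histone H1.0 and HMG-2 lie below 0 and all of Histone H2B, Histone H3 and CHRAC-17 above 0, while Histone H1, Histone H4 and the demethylase have circles on both sides.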

How the data were processed

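Per the file headers, the deposited spot intensity came from Feature Extraction 10.7.1.1 by Agilent, which subtracts background and removes spatial trends (processed signal, green channel). Each array has 14850 spots, of which 14314 hold 7157 probes at 2 spots each. Spots with an outlier flag (28 of 114512 readings) were left out, 0 were saturated, and the spots of a probe were averaged. The authors also deposited a log2 table whose sorted values are equal on all 8 arrays; which tool made it is not stated in labels or headers, and it served as an alternative. Values were log2 signal minus the array's 75th percentile. Probes well above background on at least 4 of 8 arrays were tested with limma (version 3.58.1, R 4.3.3, two-sided moderated test from lmFit and eBayes, no block), with Benjamini-Hochberg adjustment over 5989 probes. The fit was also run on simulated data with independent noise for each probe. Those data do not hold the differences in brightness and slide place of these arrays. The number of arrays limits the precision.

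Groups and replicate numbers come from the sample titles. Same-numbered arrays deviated together for 3 of the 4 numbers (r = 0.20, 0.16 and 0.38) and not for number 4 (r = -0.11), so the numbers were not used as pairs. Alternatives were the background correction (normexp, offset 50), scaling, deposited table, filter, variance model, array weights, replicate block, slide row, brightness and leaving out each array. Members and lists were chosen with earlier results of these data known. Named were every histone probe and, in each other class, the 3 brightest, the 2 highest and 2 lowest changes, probes under an unadjusted p of 0.05 or with ranges that do not overlap, and products with several probes; the 6 name-only matches, a class made afterwards, are given as a group, and DNA methylation had no probe. Names are those of the design, and no sequences or coordinates were used here. The values of 2 tested members are not reported here, and both stay in every count.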

Additional observations from a re-analysis of the deposited data

Results flagged for a closer look

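In groups of 4, a sample was marked when its gap to the nearest other sample exceeded Dixon's 95% critical share of the group's range. Of the 110 groups (55 probes, control and DHT50), 2 were marked, and chance marks about 1 in 20 such groups. Histone H3 in DHT50 was highest in DHT50 2, at a level of 6.39, with the nearest sample at 3.75 and a gap of 0.898 of the range. HMG-1 in control was lowest in control 1, at a level of -4.74, with the nearest sample at -4.09 and a gap of 0.871 of the range. Before spots with an outlier flag were left out, the 2 HMG-1 spots differed by a median of 0.23 and by at most 1.23. The HMG-1 levels had a range of 1.29 over the 8 arrays. DHT50 2 was the dimmest array (7.97) and control 1 the brightest (11.2), and the part of brightness in either value was not tested.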

How the results depend on the processing

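In these 8 arrays 0 members passed an adjusted p of 0.05 under each of the 21 alternatives (limma), and 0 of all tested probes did so except in slide row 1 alone, with 106. The count of members higher at an unadjusted p under 0.05 went from 0 to 1 with normexp, quantile normalization, the trend and robust model and slide row 2 alone, to 3 with array weights, and to between 0 and 7 with 1 array left out. The count of members lower went from 1 to 0 with normexp, median scaling, no filter, the slide row block, slide row 1 alone, slide row 2 alone and the brightness covariate, to 2 with array weights, and to between 0 and 2 with 1 array left out. Without DHT50 1 the higher count was 7, and without DHT50 2, DHT50 3, DHT50 4, control 1, control 2 or control 4 the lower count was 0. The share of all tested probes at that threshold was 21.4% with array weights and 1.35% with normexp. The replicate block, where samples share only a number, left 0 members past adjustment and 1 lower and moved the share of all tested probes from 4.71% to 9.97%. After group means were removed, DHT50 1, 2 and 3 correlated best with the control of their own number (r = 0.20, 0.16 and 0.38) and DHT50 4 with control 2 (r = -0.11 with its own). Removing the group means makes each DHT50 array correlate above 0 with some control, so these values cannot show whether the numbers pair samples. The median over other chromatin probes was 0.48 with the slide row block and 0.70 in slide row 1 alone, and that over histone probes 0.46 in slide row 2 alone. With 1 array left out the medians ran from -0.20 to 0.28 for histones and from -0.14 to 0.36 for the others, so neither sign held. They were also below 0 with the brightness covariate (-0.08 and -0.19), in slide row 1 alone for histones (-0.14) and with array weights for the others (-0.04). In the slide rows taken alone 1 group has a single array, assumed to vary like the other group. The cause of these differences was not tested.

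Changes of named probes that took the other sign, none of them past adjustment, were as follows. With normexp they were Histone H1 (Oncorhyncin II) -0.023, Histone H2A.x probe 1 0.032, Chromobox 1 0.047, BRD2 0.14 and CHRAC-1 (CHRAC-15) -0.049. With quantile normalization they were Chromobox 1 0.043 and SMARCE1 (mouse name) -0.13. With median scaling they were BAZ2A -0.0028. In the deposited log2 table they were Chromobox 1 0.035 and SMARCE1 (mouse name) -0.14. With array weights they were Histone H2A.x probe 1 0.38, Chromobox 1 0.10, Chromobox 2 (Fragment) -0.11, SCMH1 probe 1 -0.073, SCMH1 probe 2 -0.30, BAZ2A -0.25, CHRAC-1 (CHRAC-15) -0.14 and SMARCE1 (mouse name) -0.041. With the slide row block they were Histone H1 0.0022, Histone H1 (Oncorhyncin II) -0.020, Histone H2A.x probe 1 0.40, Histone H4 0.27, Histone deacetylase 1-1 0.016, Lysine-specific histone demethylase 1 0.18, Chromobox 1 0.70 and BRD2 0.44. In slide row 1 alone they were Histone H1 (Oncorhyncin II) -0.77, Histone H2A.x probe 2 -0.10, Histone deacetylase 1-1 0.15, Lysine-specific histone demethylase 1 0.52, Chromobox 1 0.58 and BRD2 0.45. In slide row 2 alone they were Histone H1 1.20, Histone H2A variant 0.17, Histone H2A.x probe 1 0.80, Histone H3.3 0.082, Histone H4 0.71, Chromobox 1 0.82, SCMH1 probe 1 -0.26, SCMH1 probe 2 -0.53, BRD2 0.42, BRD2 (RING3, second) -0.053, CHRAC-1 (YCL1) 0.0034, NAP1L1 (hNRP) 0.14 and SMARCE1 (mouse name) -0.52. With the brightness covariate they were Histone H1 0.25, Histone H2A -0.15, Histone H2A, gonadal -0.25, HMG-1 -0.20, PR-Set7 -0.032, Chromobox 2 (Fragment) -0.26, Chromobox 2 (M33) -0.24, Chromobox 5 -0.29, BAZ2A -0.24, BRD2 0.34, CHRAC-1 (CHRAC-15) -0.20, SMARCE1 (BAF57) -0.36 and SMARCE1 (mouse name) -0.86. With 1 array left out, the changes ran from -0.28 to 0.22 for BAZ2A, -0.23 to 0.39 for BRD2, -0.21 to 0.14 for CHRAC-1 (CHRAC-15), -0.63 to 0.012 for CHRAC-1 (YCL1), -0.39 to 0.47 for Chromobox 1, -0.28 to 0.18 for Chromobox 2 (Fragment), -0.14 to 0.44 for Chromobox 2 (M33), -0.85 to 0.022 for Histone H1, -0.0066 to 0.60 for Histone H1 (Oncorhyncin II), -0.011 to 0.81 for Histone H2A, gonadal, -0.36 to 0.36 for Histone H2A.x probe 1, -0.048 to 0.52 for Histone H2A.x probe 2, -0.51 to 0.20 for Histone H4, -0.13 to 0.025 for Histone deacetylase 1-1, -0.13 to 0.51 for SCMH1 probe 2 and -0.44 to 0.62 for SMARCE1 (mouse name). Of the 38 named probes, 11 kept their sign under every alternative that gave a value. Some of the 38 were named for a high or low change, and the share of all tested probes that kept their sign is not given here.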
